A study of Mus musculus with 5 samples.

Results

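Immediate early genes are described here through RNA polymerase II (Pol II) occupancy at 10 genes: the FOS family genes Fos, Fosb and Fosl2, the JUN family genes Jun, Junb and Jund, and Egr1, Ier2, Nr4a1 and Dusp1. They were taken by name, and each Pol II peak whose midpoint lay in the gene body or in the 3 kb upstream of it was counted for that gene. This gave 41 of the 56615 merged peaks, and the 10 genes stood among 12953 genes with a peak. All 10 members had a value in every library, with raw counts from 773 to 17029 per gene.

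Pol II was profiled by CUT&Tag, in which an antibody on chromatin guides a transposase to cut and tag nearby DNA, in regulatory T (Treg) cells of the mouse spleen, a lineage that restrains other T cells and is defined by the transcription factor Foxp3. Setd2 encodes the methyltransferase that places 3 methyl groups on lysine 36 of histone H3. Ctrl mice were Foxp3Cre Setd2flox/+ and KO mice were Foxp3Cre Setd2flox/flox, both on a C57BL/6 background and 8 weeks old, so the Treg cells of Ctrl mice also lost 1 Setd2 allele and the Cre, made in cells that express Foxp3, was present in both groups. All mice had received IL-2c, a complex of 1 µg IL-2 and 5 µg anti-IL-2 antibody used to enlarge the Treg pool, for 3 days. They were killed 48 h afterwards, and YFP+ cells were taken. The paper used both females and males unless it noted otherwise. Each of the 2 Ctrl and 2 KO libraries came from 80000 nuclei. The paper describes the mice as littermates but does not say which libraries shared a litter. Cells of 2 mice were pooled and sorted, and whether each library had its own pool is not clear from the methods, so the spread between libraries of a genotype may leave out variation between mice. Because whole populations were profiled, fewer cells with Pol II at a gene and less Pol II per cell cannot be told apart.

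Immediate early genes are switched on within minutes of a stimulus, such as engagement of the T cell receptor, from transcription factors that are already present, with no need for new protein. FOS and JUN proteins pair through leucine zippers to form AP-1, which binds DNA at activation genes, whereas EGR1 is a zinc finger factor and NR4A1 an orphan nuclear receptor that is widely used as a reporter of T cell receptor signaling. DUSP1 is a phosphatase that switches MAP kinases off again, so that the group holds its own brake.

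The cAMP response element (CRE), which CREB family factors bind, is a known element in front of several immediate early genes, and the 250 bases upstream of RefSeq starts (GRCm38.p6) were therefore searched for its core TGACG on either strand. RefSeq windows were held for 8 of the 10 members, and no window for Egr1 and Ier2 was used here. The core was in 5 of the 8, against 17.8% of all 32851 windows, and these 5 are shown 5′ to 3′ because they carry the element together. All 8 windows, with or without the core, lie inside a Pol II peak of their gene. Capitals mark the core, read on either strand, and in Fos the TATA box as well; in Dusp1 the longer run of capitals is the full CRE.
Fos, chr12:85473640-85473889, plus strand: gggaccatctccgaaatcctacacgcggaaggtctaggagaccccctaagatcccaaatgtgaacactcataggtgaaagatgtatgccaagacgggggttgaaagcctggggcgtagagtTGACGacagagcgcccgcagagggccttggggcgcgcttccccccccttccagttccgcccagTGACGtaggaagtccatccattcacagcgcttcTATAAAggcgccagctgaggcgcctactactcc
Fosb, chr7:19310046-19310295, minus strand: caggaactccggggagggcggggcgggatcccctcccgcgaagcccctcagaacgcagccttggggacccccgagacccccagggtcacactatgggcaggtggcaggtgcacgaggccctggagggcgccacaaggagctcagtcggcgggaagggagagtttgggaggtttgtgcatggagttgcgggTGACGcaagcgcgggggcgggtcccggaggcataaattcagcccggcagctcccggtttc
Junb, chr8:84978749-84978998, minus strand: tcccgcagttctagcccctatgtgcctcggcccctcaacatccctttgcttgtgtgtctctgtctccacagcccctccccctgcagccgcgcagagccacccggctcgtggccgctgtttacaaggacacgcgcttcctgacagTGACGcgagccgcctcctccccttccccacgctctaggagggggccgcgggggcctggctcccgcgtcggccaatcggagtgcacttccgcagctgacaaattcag
Nr4a1, chr15:101266596-101266845, plus strand: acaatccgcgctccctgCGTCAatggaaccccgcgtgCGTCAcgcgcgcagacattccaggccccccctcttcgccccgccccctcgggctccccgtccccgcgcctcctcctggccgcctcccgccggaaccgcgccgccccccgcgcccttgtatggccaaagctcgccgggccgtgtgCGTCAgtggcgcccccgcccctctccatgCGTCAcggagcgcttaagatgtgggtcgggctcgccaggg
Dusp1, chr17:26508473-26508722, minus strand: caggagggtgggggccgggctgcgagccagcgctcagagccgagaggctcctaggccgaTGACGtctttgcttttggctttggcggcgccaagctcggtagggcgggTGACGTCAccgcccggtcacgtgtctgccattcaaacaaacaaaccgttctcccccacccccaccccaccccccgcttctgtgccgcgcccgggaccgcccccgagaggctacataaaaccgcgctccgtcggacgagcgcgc

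Counting the base before the start as -1, the core began at -129 and -66 in Fos, at -60 in Fosb and at -106 in Junb. Nr4a1 held 4 cores, at -233, -213, -69 and -40, all of them read on the opposite strand. Dusp1 held 3, at -191, -143 and -140, of which the last overlap and together form the full palindrome TGACGTCA, present in 1.55% of all windows. The TATA box letters TATAAA on the coding strand were in Fos alone among the 8 and in 7.59% of all windows. The EGR motif GCGNGGGCG, on either strand, was in Fosb, Fosl2 and Nr4a1 and in 4.70% of windows. The AP-1 motif TGANTCA, in 6.75% of windows on either strand, and the CArG box of the serum response factor, in 1.47%, matched none of the 8 windows. Egr1 and Ier2 were not searched, nor was any sequence farther upstream than 250 bases, so such sites may lie there. GC content of the members' windows ran from 47.6% in Jund to 74.4% in Nr4a1, with a median of 52.4% over all windows. These are matches of letters and say nothing on which factors were bound.

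Pol II at these genes lay in broad merged peaks. The widest peak of a member was 5 kb or longer in 9 of 10 genes, whereas 0.982% of all merged peaks were that wide and the median merged peak was 570 bp. Junb, whose product acts as an AP-1 partner in activated T cells, had a single peak of 13290 bp (chr8:84973961-84987250). It began 8532 bp upstream of the gene and ended 523 bp past it. The peak also overlapped Prdx2, a peroxiredoxin gene, by a length that was not measured, so its counts cannot be credited to Junb alone. Jund had 1 peak of 10849 bp (chr8:70694762-70705610), which ended 4994 bp past the gene and reached Iqcn. Jun and Ier2 also had 1 peak each, of 5867 and 7201 bp, and these 4 genes with a single peak were the 4 members whose coding transcripts have 1 exon.

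The other members were covered in pieces. Fos had 3 peaks, and the one over the gene itself, 6133 bp long (chr12:85473051-85479183), held 89.1% of its counts and ran 1910 bp past the gene end. Fosb had 3 peaks, of which the 9665 bp peak over the gene body (chr7:19300068-19309732) held 90.5% of its counts and ended 2628 bp past the gene. Nr4a1 had 6 peaks, with 60.2% of its counts in a peak of 11120 bp (chr15:101265460-101276579) that overlies the downstream starts of the gene. Fosl2 had 10 peaks spread over its length, the widest of 5039 bp with 42.0% of the counts. Dusp1 had 13, because 1 of its annotated transcripts makes the gene 56539 bp long; the 7101 bp peak at the start of the short form (chr17:26502774-26509874) held 65.9% of the counts, and 2 of the 13 peaks also lie in the window of Ergic1. Non-coding genes overlap peaks of Jun, Jund, Fosb, Fosl2, Ier2 and Dusp1, and reads without strand cannot be split between such genes.

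Egr1 was the exception in width. Its 2 peaks, at chr18:34859807-34861956 and chr18:34862725-34864146, were 2150 and 1422 bp long, and the first of them, at the start site, held 81.1% of the counts.

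**Figure D1:**
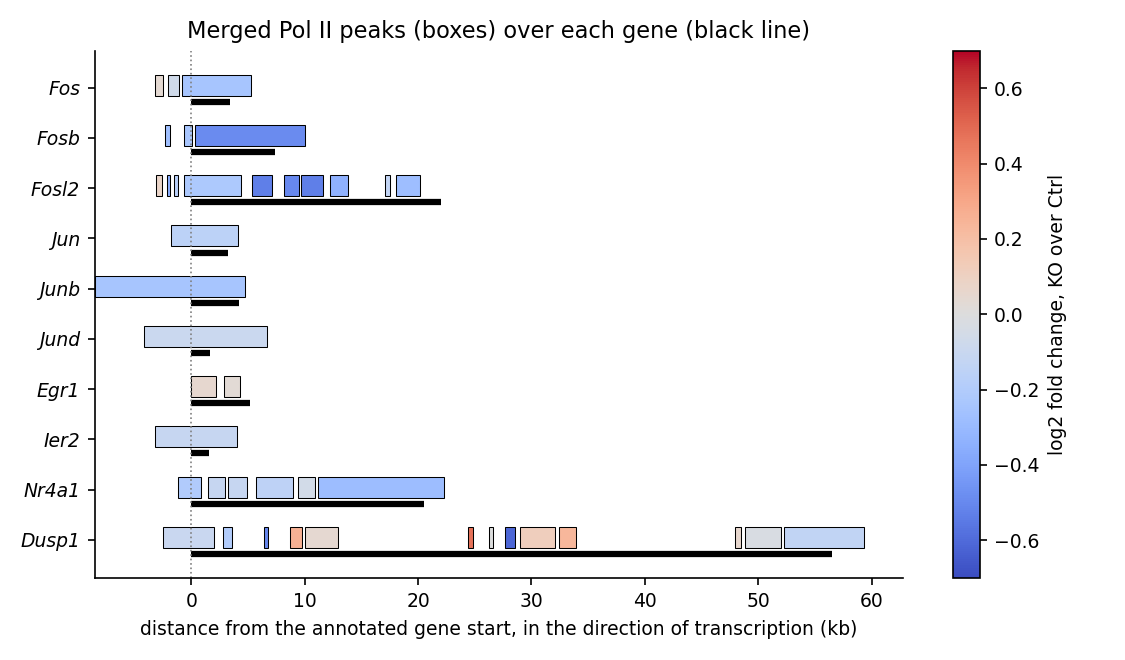
Merged Pol II peaks (boxes) at the 10 genes, drawn by distance in kb from the annotated gene start in the direction of transcription, over a black line for the gene; box color gives log2 of KO over Ctrl. Junb, Jund, Jun and Ier2 have 1 broad peak each, and Dusp1 has 13 peaks along an annotated length of 56539 bp.

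For levels, normalized counts (raw counts divided by the DESeq2 size factor of the library) were divided by the length of the peaks that held them. In Ctrl libraries Junb had the highest density, 842 ± 78.4 normalized counts per kb (SD, n = 2), above 99.9% of genes with a peak. Jun followed at 415 ± 37.2 and Nr4a1 at 410 ± 0.352, and the Nr4a1 values lay within those of Jun. Jund was at 391 ± 7.18, Fos at 366 ± 3.94 and Fosb at 357 ± 0.423 normalized counts per kb, and the Ctrl values of these 3 neighbors did not overlap. Egr1 (351 ± 23.6) spanned the values of Fosb and overlapped those of Fos, so its place below them is not settled. Ier2 (320 ± 46.2) overlapped both Egr1 and Dusp1 (292 ± 23.9), whereas both Egr1 values lay above both Dusp1 values. Fosl2 had the lowest density, 166 ± 0.798, above 64.3% of genes, whereas the other 9 members each stood above at least 93.6% of genes. In KO libraries Junb was again first, at 720 ± 51.6, and Fosl2 last, at 135 ± 5.36. Fosb, the sixth in Ctrl, was the ninth by its mean, 260 ± 54.9 normalized counts per kb. Its KO values, 299 and 221, spanned those of Dusp1, 293 and 265, and overlapped those of Ier2, 326 and 273. The place of Fosb among these genes in KO is therefore not settled. Peak width differs between genes and was set on these same libraries, so the order is one of density within called peaks.

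To ask whether loss of Setd2 changed Pol II at these genes, the summed counts of each gene were compared between KO and Ctrl with the DESeq2 Wald test over all 12953 genes, with genotype as the only term. None of the 10 members passed an adjusted p-value of 0.05, and 0.1% of all genes did. With the replicate number as a block, 3 members passed, where 116 of the 2155 genes left with an adjusted p-value did. Although the paper calls the mice littermates, the labels tie that number to no litter, batch or day. The closing section gives the values of the block fit. With genotype alone, 2 of 10 members, Fosb and Fosl2, had an unadjusted p-value below 0.05. Each was lower in KO, where 1.44% of all genes were lower at that threshold. The quasi-likelihood test of edgeR gave 0 members after adjustment, and 0 of all 12953 genes. It gave 4 members lower at an unadjusted p-value below 0.05, where 2.37% of all genes were lower by that test. In 6 of 10 members each KO library was below each Ctrl library, against 16.9% of all genes and 19.2% of genes with a mean normalized count of at least 1000. No member had both KO libraries above, a count for which no share over all genes was taken. The log2 fold change was below 0 in 9 of 10 members, against 50.8% of all genes, with a median of -0.17 against -0.0044. Without KO 2, the shallowest library, the count below 0 was 6 of 10 and no member had an unadjusted p-value below 0.05, and without Ctrl 1 the counts were 7 and 1.

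**Figure D2:**
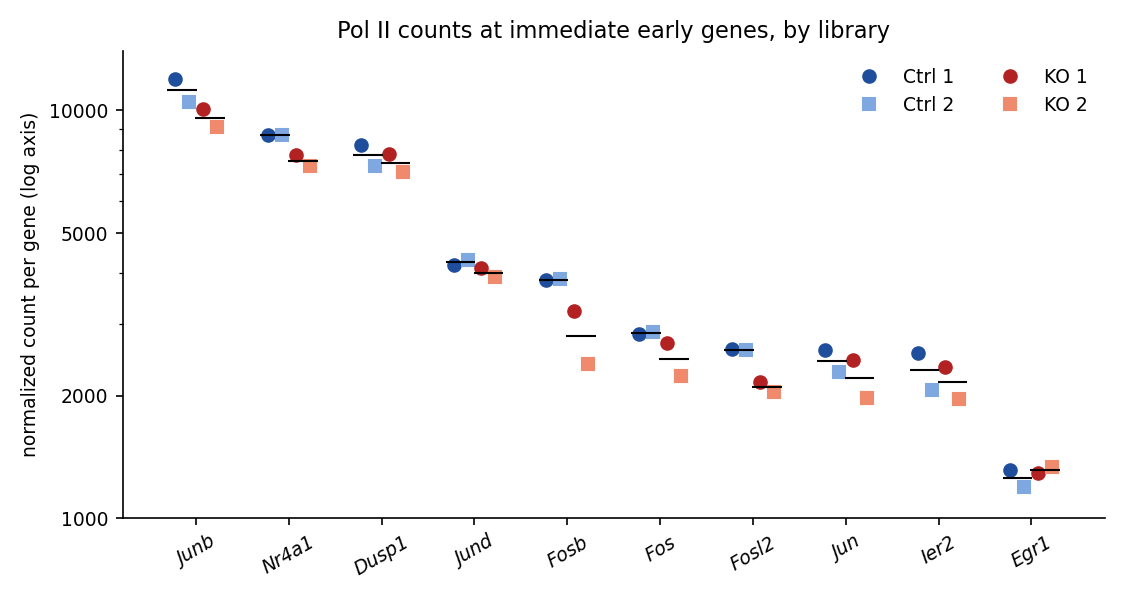
Normalized Pol II count per gene (log axis) in the 2 Ctrl (blue) and 2 KO (red) libraries, circles for number 1 and squares for number 2, with horizontal lines at the group means. Fosb, Fosl2, Fos, Junb, Jund and Nr4a1 have both KO points below both Ctrl points, and for Egr1 the points of the groups overlap.

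Among the FOS family genes, Fosb, whose protein pairs with JUN proteins, showed the largest difference of the 10 members with all 4 libraries and all its peaks. Ctrl 1 gave a normalized count of 3846, Ctrl 2 of 3852, KO 1 of 3225 and KO 2 of 2387. The Ctrl libraries were nearly equal, both KO libraries were lower, and KO 2 lay well below KO 1. The log2 fold change was -0.45 ± 0.15 (SE), with an unadjusted p-value of 0.00258 and an adjusted p-value of 0.656 (DESeq2). Without KO 2 it was -0.25 against -0.26 in Fosl2, and over its start-site peaks alone, which hold the few counts outside the broad gene body peak, it was -0.23 against -0.28 in Fosl2.

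Fosl2, which encodes the FOS-related protein FRA2, had 2600 and 2583 normalized counts in the Ctrl libraries and 2159 and 2041 in the KO libraries. The groups did not overlap, and the gap between them was wider than the spread within either. The log2 fold change was -0.30 ± 0.12 (SE; unadjusted DESeq2 p-value 0.0157, adjusted 1.00). Fos itself had 2823 and 2867 in Ctrl against 2698 and 2228 in KO. Its KO libraries were lower, but KO 2 was farther from KO 1 than KO 1 was from either Ctrl library, and the log2 fold change of -0.20 ± 0.14 had a 95% interval from -0.47 to 0.06. It was -0.08 without KO 2 and -0.35 without KO 1.

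In the JUN family, Junb had 11933 and 10460 normalized counts in Ctrl and 10054 and 9085 in KO, counted in the peak that also overlaps Prdx2. Both KO libraries were the lower, but Ctrl 2 and KO 1 lay closer to each other than the 2 Ctrl libraries did. This gave a log2 fold change of -0.23 ± 0.12, with a 95% interval from -0.47 to 0.01, and was -0.13 without Ctrl 1. Jund, a JUN gene known for steady expression in resting cells, had 4183 and 4294 in Ctrl against 4101 and 3909 in KO, with a log2 fold change of -0.08 ± 0.12 and an interval from -0.31 to 0.15. Its groups did not overlap, though they lay close together. Jun, the partner of FOS in classical AP-1, had 2588 and 2279 in Ctrl against 2441 and 1977 in KO. KO 1 lay between the Ctrl libraries, and the log2 fold change was -0.14 ± 0.15 (interval -0.42 to 0.15).

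Nr4a1 had 8700 and 8689 normalized counts in Ctrl and 7778 and 7286 in KO, so that the groups were apart by more than the spread within either. The log2 fold change was -0.21 ± 0.11 (SE; unadjusted DESeq2 p-value 0.0673, adjusted 1.00). Egr1 was the only member with a log2 fold change above 0, at 0.06 ± 0.14 (interval -0.21 to 0.34). It had normalized counts of 1314 and 1195 in Ctrl against 1291 and 1338 in KO, and the groups overlapped.

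Ier2, which encodes a nuclear immediate early protein, had 2539 and 2069 normalized counts in Ctrl and 2350 and 1967 in KO, which gave a log2 change of -0.09 ± 0.15 with an interval from -0.39 to 0.20. Dusp1 had 8223 and 7323 in Ctrl against 7807 and 7070 in KO. In both genes the KO 1 value lay between the Ctrl values, and the libraries numbered 2 were the lower of each genotype. For Dusp1 the log2 fold change was -0.06 ± 0.12 (interval -0.30 to 0.18). With the RefSeq bounds of the gene, which keep the short form only and were chosen after seeing the data, it was -0.11.

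The libraries were also set side by side by number, as KO 1 against Ctrl 1 and KO 2 against Ctrl 2, with no test because each ratio rests on 1 library a side. At number 1 all 10 members had a log2 ratio below 0, from -0.27 in Fosl2 to -0.03 in Egr1, with a median of -0.10 against -0.0033 over all genes. At number 2 the ratio was below 0 in 9 members, from -0.69 in Fosb to 0.16 in Egr1, with a median of -0.20 against -0.0060. The 9 members lower at both numbers compare with 31.9% of all genes and 41.5% of genes with a mean normalized count of at least 1000. Fos was at -0.07 and -0.36 at the 2 numbers, Fosb at -0.25 and -0.69, and these were the widest gaps between numbers for members below 0 at both. Fosl2 (-0.27 and -0.34), Junb (-0.25 and -0.20) and Nr4a1 (-0.16 and -0.25) gave closer values.

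**Figure D3:**
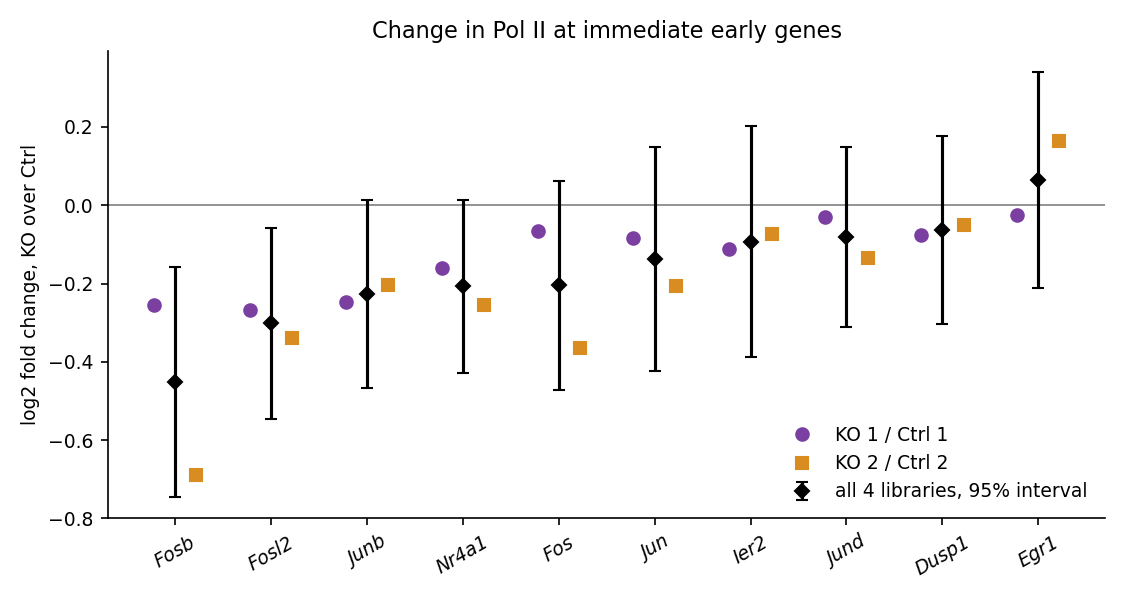
Log2 fold change of Pol II, KO over Ctrl, for each member: diamonds with 95% intervals from DESeq2 on all 4 libraries, circles for KO 1 over Ctrl 1 and squares for KO 2 over Ctrl 2. The intervals of Fosb and Fosl2 lie below 0 before any adjustment, those of the other 8 cross 0, and the squares reach from -0.69 (Fosb) to 0.16 (Egr1).

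Libraries of the same genotype also differed, by less than the KO over Ctrl ratios in Fosl2 and Nr4a1 and by more in Ier2 and Dusp1. The log2 ratio of Ctrl 2 over Ctrl 1 was below 0 in 7 members and ran from -0.30 in Ier2 to 0.04 in Jund, and that of KO 2 over KO 1 was below 0 in 9 and ran from -0.43 in Fosb to 0.05 in Egr1. The members' medians were -0.07 and -0.14, against 0.0034 and 0.0029 over all genes. The libraries numbered 2 were the shallower, with total counts of 5624680 and 4489646 against 11331274 and 13351007. The same direction was seen in the 556 peaks of 5 kb or more, whose median log2 ratio of number 2 over number 1 was -0.16 in Ctrl and -0.16 in KO, and whose median KO over Ctrl change, on the log2 scale, was -0.07 against -0.0094 for all peaks. The part of depth and of peak breadth in the members' values was not tested.

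Peak by peak, 0 of the 41 peaks passed an adjusted p-value of 0.05 in DESeq2, as did 0% of all 56615 peaks. At an unadjusted p-value below 0.05 there were 3, all lower in KO, where 0.664% of all peaks were lower at that threshold, and edgeR gave 5 of 41 lower at that threshold, where 1.7% of all peaks were lower by that test. The broad peak of Fosb had 3588 and 3482 normalized counts in Ctrl against 2908 and 2119 in KO, which gave a log2 change of -0.49 ± 0.19 (SE; unadjusted DESeq2 p-value 0.012). The other 2 lay inside Fosl2, downstream of its first start, with log2 fold changes of -0.53 ± 0.25 in the peak of 1765 bp and -0.53 ± 0.24 in the peak of 1926 bp. The peak at the first start of Fosl2 itself, with 1151 and 890 in Ctrl against 1003 and 741 in KO, gave -0.22 ± 0.22, with overlapping groups. Each KO library was below each Ctrl library in 15 of 41 peaks, against 16.1% of all peaks. In 1 peak both were above, a count for which no share over all peaks was taken. The log2 fold change was below 0 in 31 of the 41 peaks, among them all 3 peaks of Fosb and all 6 of Nr4a1, whereas the 2 peaks of Egr1 were at 0.05 and 0.03. No share over all peaks was taken for the count below 0, and the median over all peaks was -0.0094. Over the alternatives run on peaks the count below 0 ran from 25, without KO 2, to 31.

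The share of the members' counts in start-site peaks (midpoint within 3 kb of an annotated start) was 84.4% and 83.0% in the Ctrl libraries and 84.4% and 84.2% in the KO libraries. The means were 83.7 ± 1.01% in Ctrl and 84.3 ± 0.134% in KO, and the difference of 0.562 points gave an exact two-sided permutation p-value of 1, where 2 against 2 libraries cannot give less than 0.333. By gene, the share was lowest in Fosb, from 8.67% to 10.4%, because the midpoint of its broad peak lies 4700 bp from the nearest start. In Fos, Jun, Junb, Jund, Egr1 and Ier2 it was 100% in every library, because all their peaks are start-site peaks by the midpoint rule. The pooled share could therefore change only through the other members and the weight of each gene. Broad peaks counted whole do not show where Pol II lay inside a gene.

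As a group, the 10 genes held 0.613% and 0.582% of all counts in peaks in Ctrl and 0.557% and 0.505% in KO. Summed over the genes, normalized counts came to 48749 and 45610 in Ctrl against 43904 and 39287 in KO. Heat shock genes, which are known to respond to cell handling, were set beside them. Of 12 heat shock genes 10 had a peak, 8 of these had a log2 fold change below 0, the median was -0.27, and their normalized counts summed to 17660 and 11703 in Ctrl against 12543 and 10395 in KO. The highest sum was in Ctrl 1 for each group of genes and the lowest in KO 2. One heat shock gene passed the adjusted threshold, Hspa1a, named here after its values were seen, at -1.02 ± 0.23 (adjusted DESeq2 p-value 0.0113), and its reads cannot be fully separated from those of the near-identical Hspa1b. The part of handling in the immediate early values was not tested.

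The cells carried Pol II at Treg genes. All 7 Treg and T cell markers listed (Foxp3, Il2ra, Ikzf2, Ctla4, Tnfrsf18, Cd3e and Cd4) had peaks, with summed normalized counts of 26848 to 31472 in Ctrl and 28478 to 32403 in KO, and none had an unadjusted p-value below 0.05. Of 17 markers of B, myeloid, CD8 T, NK and erythroid cells only Cd79a and Cd79b had a peak, with a summed 110 to 118 normalized counts in Ctrl and 88.6 to 138 in KO, and the defining markers of the other 4 cell types had none. Setd2 itself had 512 and 518 normalized counts in Ctrl and 455 and 570 in KO, which gave a log2 change of -0.02 ± 0.19. These counts come from 9 peaks summed along the gene and do not check the deletion.

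Other genes of the pathway were taken from 5 lists, with 74 genes of which 71 had a peak. With genotype as the only term none passed the adjusted threshold in DESeq2 or edgeR, where 0.1% and 0 of all genes did. At an unadjusted DESeq2 p-value below 0.05, 10 were lower and 1 higher in KO, where 1.44% of all genes were lower. The log2 fold change was below 0 in 40, against 50.8% of all genes, and the median was -0.02. Each KO library was below each Ctrl library in 17 of the 71, against 16.9% of all genes and 19.2% of genes with a mean normalized count of at least 1000. Above them were 12 of the 71, a count for which no share over all genes was taken. The counts for the members were 6 and 0 of 10. Without KO 2 or without Ctrl 1 the number lower at that unadjusted threshold was 3.

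Of the other MAP kinase phosphatases, which like DUSP1 act as feedback inhibitors, 4 of 7 had a log2 fold change below 0, with a median of -0.22. Dusp10 had 10077 and 10034 normalized counts in Ctrl and 7652 and 8025 in KO, which gave a log2 change of -0.36 ± 0.11 (unadjusted DESeq2 p-value 0.00123, adjusted 0.454). Dusp5, at -0.32 ± 0.13, and Dusp4, at -0.32 ± 0.14, also had both KO libraries below both Ctrl libraries. Among 25 other immediate early response genes with a peak, 15 were below 0, with a median of -0.07. Tnfaip3, which encodes the NF-kB inhibitor A20, had the smallest p-value of the pathway genes, with 18142 and 15827 normalized counts in Ctrl and 13309 and 11723 in KO and a log2 fold change of -0.44 ± 0.12 (unadjusted DESeq2 p-value 0.000406, adjusted 0.239). Csrnp1, a nuclear protein gene of the immediate early class, was at -0.26 ± 0.11.

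Of 18 other AP-1 and bZIP partner genes with a peak, 12 had a log2 fold change below 0 and the median was -0.11. Maff, which encodes a small MAF protein, was at -0.32 ± 0.12 and Crem, a CREB family gene, at -0.32 ± 0.14, each with both KO libraries below both Ctrl libraries. Jdp2, whose protein can repress AP-1, was the one pathway gene higher in KO at an unadjusted p-value below 0.05, with 295 and 262 normalized counts in Ctrl and 353 and 426 in KO and a log2 fold change of 0.47 ± 0.21 (unadjusted DESeq2 p-value 0.0274, adjusted 1.00). The 6 other EGR and NR4A genes and corepressors with a peak had a median of 0.0039, with 3 below 0 and 3 above. Of these 6, 1 was lower and 0 higher in KO at an unadjusted DESeq2 p-value below 0.05. The 16 upstream SRF and MAP kinase genes had a median of 0.04, with 9 of the 16 above 0. Among them too, 1 was lower and 0 higher at that threshold.

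**Figure D4:**
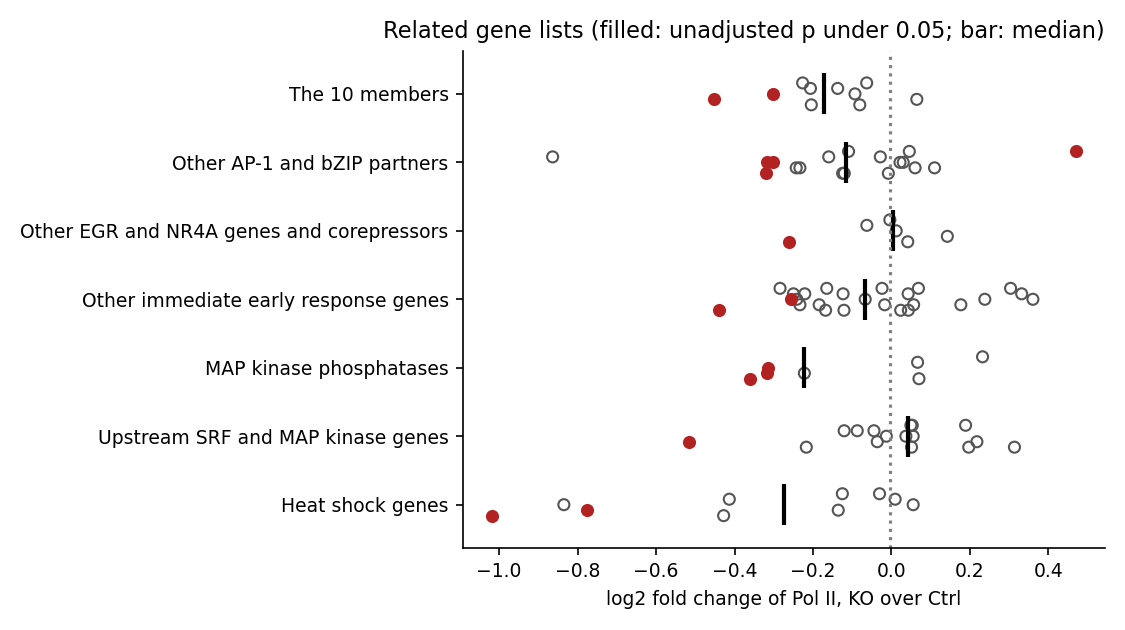
Log2 fold change of Pol II, KO over Ctrl, for the 10 members and 6 related lists; each dot is 1 gene, filled where the unadjusted DESeq2 p-value is below 0.05, the black bar is the list's median and the dotted line the median of all genes. The medians run from -0.27 (heat shock) to 0.04 (upstream genes), with the members at -0.17.

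On the log2 scale, centered per gene, the members' mean profile ran in the order Ctrl 1 (0.13), Ctrl 2 (0.04), KO 1 (0.00084), KO 2 (-0.17). Among 8097 other genes with a mean normalized count of at least 200, the 5 with the smallest Euclidean distance to that profile over the 4 libraries were Etf1 (0.0060), Rabif (0.013), Hax1 (0.020), Cyp20a1 (0.022) and Hddc3 (0.023). The members themselves lay 0.089 to 0.356 from their own mean. The 5 genes were picked as the nearest of 8097, whereas the members were not picked by distance, so the smaller distances follow from the choice. Etf1, a translation release factor gene, had 3032 and 2829 normalized counts in Ctrl and 2762 and 2448 in KO, with an unadjusted DESeq2 p-value of 0.193 and an adjusted one above the threshold.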

How the data were processed

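Pol II CUT&Tag libraries (2 Ctrl, 2 KO) were analyzed; 1 IgG library was not analysed here. The authors trimmed 150 bp paired-end reads, mapped them to mm10 with Bowtie2, kept unique reads, removed duplicates with MarkDuplicates, called peaks with MACS2 against IgG (p-value cutoff 0.01), merged them with bedtools, and deposited raw counts per merged peak; versions are not given in the sources used here. The number of columns without a sample was 0. Total counts were 4489646 to 13351007 per library, with gene-level size factors of 1.42, 0.718, 1.69 and 0.578 for Ctrl 1, Ctrl 2, KO 1 and KO 2. Because peaks were called on the compared libraries, broad or shared peaks set what a gene's count holds, and reads carry no strand.

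Peaks were assigned with GENCODE vM21 (GRCm38, the assembly of mm10), protein-coding genes first; positions are counted from 1. Counts were summed per gene and tested with DESeq2 1.42.0 in R 4.3.3 (genotype only, two-sided Wald test, Benjamini-Hochberg with independent filtering, which removed no gene or peak in this fit, threshold 0.05), the tool of the study, with edgeR 4.0.16 as an alternative. Both fits were run on simulated counts with independent libraries and changes larger than that of any member. That check does not cover changes of the members' size. The alternatives were other scalings, a mean of at least 10 counts, the replicate number as a block, leaving out each library, start-site peaks only, peaks of no other gene, a 1 kb upstream window and, added after seeing the data, RefSeq bounds and the block without independent filtering. The members and lists were chosen with earlier results of these data known. The genes named were the 10 members, at most 8 other pathway genes by smallest p-value among those with an unadjusted p-value below 0.05, and the 5 genes most alike in profile.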

Additional observations from a re-analysis of the deposited data

How the results depend on the processing

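No member passed the adjusted threshold under edgeR, but 0 of all 12953 genes did, so that count says nothing particular about the members. Under either other scaling and the low-count filter no member passed, where 13 of all genes did. Nor did any with start-site peaks only (10 of 12028 genes passed), peaks of no other gene (7 of 10520) or the 1 kb window (13 of 12800), which gives Junb no value. RefSeq bounds gave 8 members a value and 0 passed, where 8 of 9496 genes did. Fits without 1 library, which have 1 library in a group, are described below. The labels number libraries 1 and 2 in each genotype but tie the numbers to no litter, batch or day. With the replicate number as a block, 3 members passed rather than 0, Junb (adjusted DESeq2 p-value 0.000815), Nr4a1 (0.00894) and Fosl2 (0.0131), each lower in KO. Of the 71 other pathway genes 12 passed rather than 0, among them Tnfaip3, Dusp10, Maff, Dusp5, Dusp4, Crem and Csrnp1. That fit changed the tested set too, since DESeq2's independent filter left 2155 of 12953 genes with an adjusted p-value, of which 116 passed. With the block and no such filter, added after seeing the data, 2 members passed, Junb (0.00397) and Nr4a1 (0.0437), Fosl2 did not (0.064), and 10 other pathway genes and 81 of all genes did; the correlation of deviations between libraries of the same number was 0.37 across genes. The cause was not tested. No member peak passed under edgeR, where 27 of all 56615 peaks did, or under the other scalings and the low-count filter, where 0 did. Nor did any with the block, where 25 of all peaks passed and 41710 had no adjusted p-value. With the block and no such filter 14 of all peaks passed. Such small shares of all peaks mean that the absence of member peaks says nothing particular about the members.

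Single log2 fold changes near 0 changed sign when 1 library was left out. Dusp1 ran from -0.14 to 0.025 (0.0069 without KO 2), Ier2 from -0.23 to 0.066 (0.028 without KO 2), Jun from -0.30 to 0.0042 and Egr1 from -0.00066 to 0.14. The turns came without Ctrl 1 or KO 2 for Dusp1 and Ier2, without KO 2 for Jun and without Ctrl 2 for Egr1, and none passed the threshold. Fosb ran from -0.69 without KO 1 to -0.25 without KO 2, Fos from -0.35 to -0.08 and Junb from -0.32 without Ctrl 2 to -0.13 without Ctrl 1. The difference in start-site share ran from -0.15 to 1.28 points when 1 library was left out. With total-count scaling 9 members were again lower at both numbers. With 2 libraries a group and a 2.97-fold range of totals, no difference of a member passed the adjusted threshold without the block.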
